A study of Mus musculus with 4 samples.

Results

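The axon guidance ligands and receptors are the ephrins and their Eph receptors, the semaphorins with plexins and neuropilins, the Slits with Robo receptors, and the netrins with Unc5 receptors. They were chosen by symbol, as all genes whose annotated symbol starts with Epha, Ephb, Efna, Efnb, Sema and a digit, Plxn, Nrp1 or Nrp2, Slit1 to Slit3, Robo1 to Robo4, Ntn or Unc5, over probe sets of 1 gene. This gave 72 of the 18193 named genes, on 159 of 45101 probe sets, and each gene was read from 1 probe set, the one with the largest mean signal across arrays. By role 37 are ligands and 32 are receptors, and 3 match the pattern by name alone (Unc50, a membrane protein of the secretory pathway, Unc5cl, an adaptor related to the Unc5 receptors, and Plxna4os1, a transcript opposite to Plxna4).

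Guidance cues are membrane-bound or secreted proteins that attract or repel growing axons, and the same cues steer neural crest cells, blood vessels and epithelia. Ephrins and Eph receptors signal at contacts between cells, in both directions. Secreted class 3 semaphorins mostly act through a neuropilin paired with a plexin, whereas membrane-bound semaphorins bind plexins directly, Slits repel through Robo receptors, and netrins attract through Dcc and repel with the help of Unc5 receptors. In the newborn brain these genes serve the wiring of long tracts, and in the jaw they are known from the trigeminal innervation, the palate, teeth and vessels.

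FoxO6 is a forkhead transcription factor, and the study asked what its loss changes in the growing head. Affymetrix arrays were run on mandible and maxilla (called the jaw here) and on brain, for FoxO6-/- and WT mice, with 1 array per tissue and genotype and no replicates. The labels give the age as postnatal day 0, while the paper speaks of E18.5 embryos for the jaw arrays. According to the methods the Foxo6 coding region was replaced by a LacZ and Neo cassette, RNA of 4 animals was combined per jaw array, and the mutant pool included heterozygous animals besides nulls. No probe set named Foxo6 was at hand, so the genotype labels were not checked on the arrays. The values are MAS5 signals on a linear scale, and the number of arrays limits their precision.

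The starts of 4 members on which the results below turn are shown. Epha1 and Epha5 are the Eph receptors called most strongly toward the jaw and toward the brain, and Slit3 is the Slit ligand called toward the jaw. Sema4g had the lowest genotype ratio in the jaw among the members whose mean signal there passed the floor given below. The stretches run 5′ to 3′ from 250 bases before to 50 bases after the RefSeq start of the gene (build GRCm38.p6), and capitals mark each GC box, GGGCGG on either strand (CCGCCC when read from the other). Epha1 lies at chr6:42373219-42373518 (minus strand), Epha5 at chr5:84417333-84417632 (minus strand), Slit3 at chr11:35121206-35121505 (plus strand) and Sema4g at chr19:44989094-44989393 (plus strand).
Epha1: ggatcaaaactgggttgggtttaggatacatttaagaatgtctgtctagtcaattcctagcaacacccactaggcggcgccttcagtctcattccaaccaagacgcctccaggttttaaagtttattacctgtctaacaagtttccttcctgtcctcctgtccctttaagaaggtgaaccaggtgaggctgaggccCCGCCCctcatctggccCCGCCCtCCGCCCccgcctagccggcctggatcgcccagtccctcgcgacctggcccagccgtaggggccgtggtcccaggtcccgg
Epha5: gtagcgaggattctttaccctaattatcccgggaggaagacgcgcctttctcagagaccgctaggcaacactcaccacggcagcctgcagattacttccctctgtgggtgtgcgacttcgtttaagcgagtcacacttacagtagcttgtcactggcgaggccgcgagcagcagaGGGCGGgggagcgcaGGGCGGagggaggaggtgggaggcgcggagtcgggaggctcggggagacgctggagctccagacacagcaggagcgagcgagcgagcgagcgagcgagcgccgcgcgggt
Slit3: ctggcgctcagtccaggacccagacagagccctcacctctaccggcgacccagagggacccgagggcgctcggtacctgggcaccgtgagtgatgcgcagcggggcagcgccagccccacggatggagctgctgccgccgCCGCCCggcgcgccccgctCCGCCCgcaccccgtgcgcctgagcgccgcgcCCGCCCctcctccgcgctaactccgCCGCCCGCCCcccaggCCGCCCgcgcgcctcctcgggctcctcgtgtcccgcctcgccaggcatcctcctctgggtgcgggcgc
Sema4g: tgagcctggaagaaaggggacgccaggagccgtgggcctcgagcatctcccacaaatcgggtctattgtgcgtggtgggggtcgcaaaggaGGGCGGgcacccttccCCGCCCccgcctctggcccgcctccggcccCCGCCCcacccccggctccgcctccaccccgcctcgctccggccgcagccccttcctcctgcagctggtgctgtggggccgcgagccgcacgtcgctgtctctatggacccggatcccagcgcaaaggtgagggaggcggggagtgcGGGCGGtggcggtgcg
These windows hold 3 GC boxes in Epha1, 2 in Epha5, 6 in Slit3, of which a pair overlap, and 4 in Sema4g. RefSeq starts were at hand for 62 members, with 78 starts in all, and a GC box stood in 56 of these (71.8%) against 35.7% of all 32851 starts. The median number of CpG dinucleotides per window was 18.5 over the members and 7.0 over all starts. TATAAA was found on either strand in 2 of the 78 windows (2.56%, against 13.6% of all), and the forkhead core GTAAACA on either strand in 0 of 78, against 3.65% of all. These matches describe letters in a window of 300 bases only.

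The arrays were scaled alike, with a trimmed mean of 500 on each and median signals between 91.69 and 109.8. A floor of 101, the median over all signals, marks the level under which ratios scatter widely. The 3′ to 5′ signal ratio of the Actb controls was 3.37 on the FoxO6-/- jaw array and 2.21 to 2.23 on the others, and that of Gapdh 1.95 against 1.44 to 1.55. The tissue labels were checked with marker genes. Summed over 10 neuron markers the signal was 3169 and 5288 on the jaw arrays and 60596 and 46642 on the brain arrays (FoxO6-/- first). In the jaw Nefm was under the floor on both arrays (79.28 and 87.96) and Snap25 on the FoxO6-/- array (63.37). The arrays labelled brain carried muscle markers at a sum of 47204 and 55115, osteoblast markers at 58605 and 53523 and cartilage markers at 48295 and 25537, against 113144 and 107037, 87740 and 69801, and 25957 and 43385 on the jaw arrays. Tissue differences therefore compare the arrays as labelled.

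**Figure D1:**
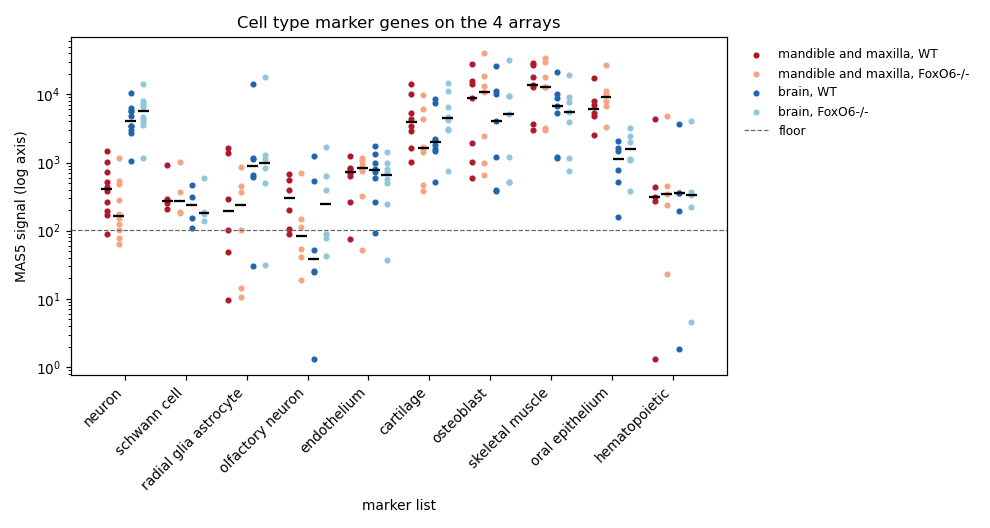
MAS5 signal (log axis) of each marker gene of 10 cell type lists on the 4 arrays, with a bar at the median of each list and array and a dashed line at the floor of 101. Neuron markers stand far higher on both brain arrays, while cartilage, bone and muscle markers reach high signals on all 4.

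The first comparison asked which guidance genes differ between jaw and brain. Higher in brain were the receptors Epha5, Ephb1, Plxna2, Plxna4, Plxnc1 and Unc5d and the ligands Efnb3, Sema4f, Sema6a and Ntng1. Higher in the jaw were the receptors Epha1, Ephb4 and Robo2 and the ligands Slit3, Sema3b and Sema3d. Of the 72 members, 61 had a mean signal at or above the floor and entered limma with tissue and genotype as terms, at 1 residual degree of freedom. In this fit 10 of the 61 (16.4%) were higher in brain, beside 8.73% of all 12569 genes, and 6 (9.84%) were higher in the jaw, beside 6.48%. The median tissue difference of the members was -0.04 (log2, jaw minus brain) and that of all genes 0.05. Over ligands it was 0.03 with 3 of 33 called toward the jaw and 4 toward brain, and over receptors -0.04 with 3 of 27 and 6. The 11 members not tested are Epha6, Epha8, Epha10, Ntn3, Ntn5, Ntng2, Plxna4os1, Robo3, Sema6b, Unc5a and Unc5cl, of which 6 were below the floor on all 4 arrays. In these bulk samples fewer cells of a type and less RNA per cell cannot be told apart.

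**Figure D2:**
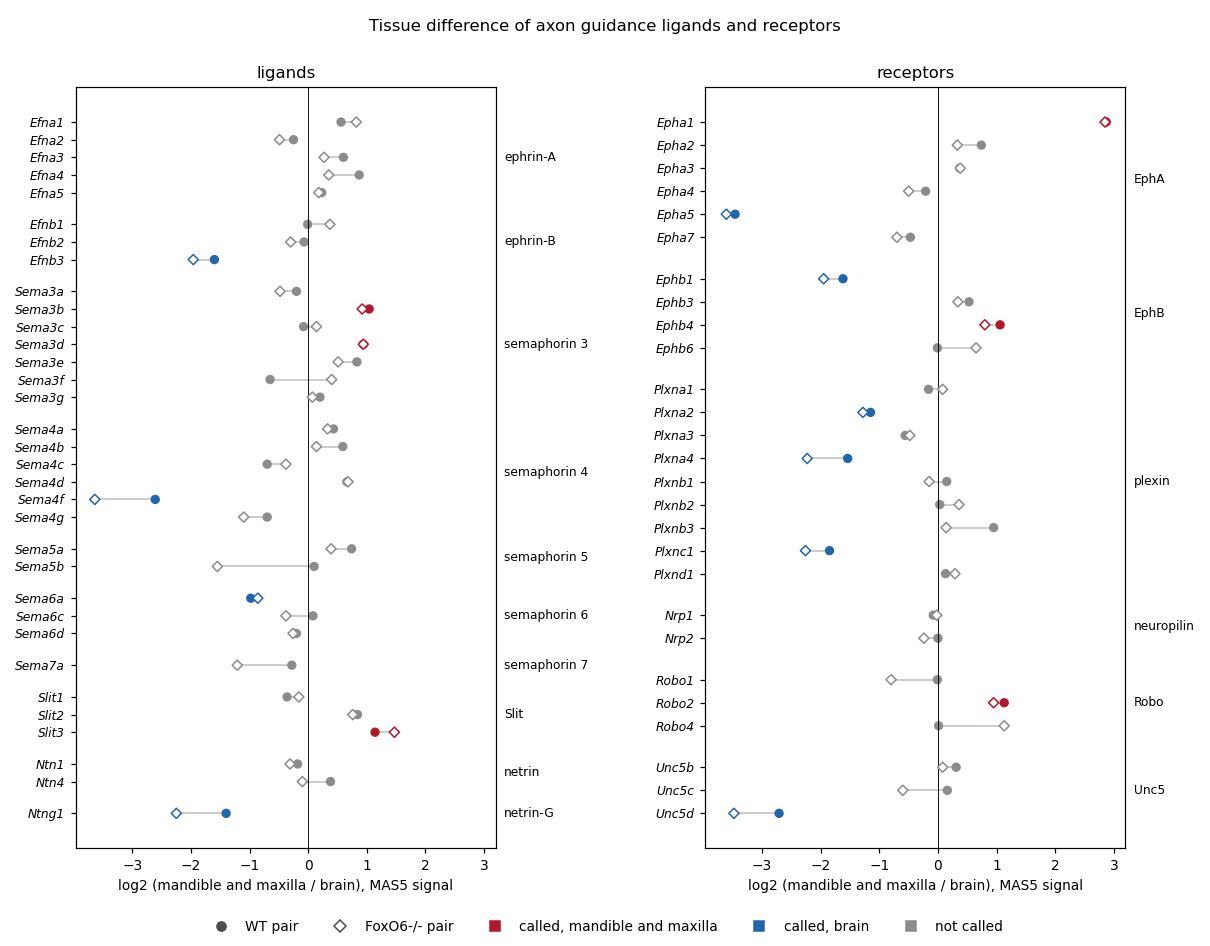
Log2 ratio of jaw over brain for each tested ligand (left) and receptor (right), by family, with filled circles for the WT pair of arrays and open diamonds for the FoxO6-/- pair, red and blue where limma called the gene toward jaw or brain. Epha5 and Unc5d lie far to the brain side and Epha1 far to the jaw side, whereas neuropilins, netrins and most plexin B genes sit near 0.

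In the ephrin system 1 EphA and 1 EphB receptor were called to each side, of 6 and 4 tested. Epha5, a receptor for A-type ephrins known from the mapping of axons onto their targets, had signals of 139.7 (FoxO6-/-) and 126.2 (WT) in the jaw and 1705 and 1388 in brain. Both brain arrays were far above both jaw arrays, and the fit put brain 11.6-fold higher (log2 -3.53 ± 0.15 SE, limma adjusted p = 0.00857). Its other 2 probe sets with a mean above the floor gave -2.92 and -2.99. Ephb1, a B-type receptor that routes retinal axons at the optic chiasm, read 340.5 and 279.2 in the jaw and 1318 and 860.4 in brain, with brain 3.45-fold higher (log2 -1.79 ± 0.17 SE, limma adjusted p = 0.018). The ligand Efnb3, which keeps corticospinal axons from recrossing the midline, read 268.1 and 280.4 against 1044 and 850.4 and was 3.44-fold higher in brain (log2 -1.78 ± 0.18 SE, limma adjusted p = 0.0187). For each of these genes the groups were well apart.

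Epha1, an Eph receptor found mainly in epithelia, had signals of 237.4 and 200.3 in the jaw and of 32.82 and 27.44 in brain, the latter both under the floor. Against the floor the jaw was at least 2.17-fold higher, while the fit on the signals as measured gave a log2 difference of 2.86 ± 0.15 (SE, limma adjusted p = 0.00873). Ephb4, the receptor of ephrin-B2 on veins, read 333.5 and 383.1 in the jaw and 192.2 and 183.2 in brain, a 1.91-fold difference close to the threshold (log2 0.93 ± 0.16 SE, limma adjusted p = 0.0499). Its usual partner Efnb2 stood at 3380 and 3307 in the jaw and at 4175 and 3474 in brain, with no call (log2 -0.19 ± 0.16 SE, limma adjusted p = 0.472). The neighbouring ephrin-A genes Efna1, Efna3 and Efna4, with no gene between them on chromosome 3, had tissue differences of 0.69, 0.43 and 0.61 (log2), none of them called, and the second probe set of Efna3 gave -0.50. None of the 5 ephrin-A ligands passed the test. They ranged from Efna1, at 776.9 and 635.9 in the jaw and 438.9 and 430.6 in brain, to Efna2, at 500.5 and 487.1 in the jaw and 704.4 and 580.1 in brain. Efnb1, which lies on the X chromosome and is mutated in human craniofrontonasal syndrome, was near level at 885.9 and 754.5 against 687.2 and 761.8 (log2 0.18). Of the other Eph receptors tested, Epha2, Epha3, Ephb3 and Ephb6 had log2 differences of 0.32 to 0.54 and Epha4 and Epha7 of -0.35 and -0.58, again with no call. Further Epha7 probe sets with a mean above the floor lay more toward brain, at -0.85, -2.36 and -1.18.

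Among the semaphorin receptors 3 of 9 plexins were called, all toward brain. Plxnc1, the plexin that binds Sema7a, read 332.8 and 373.2 in the jaw and 1590 and 1350 in brain, 4.16-fold higher there (log2 -2.06 ± 0.18 SE, limma adjusted p = 0.0156). Plxna4, which with neuropilins receives class 3 semaphorins, stood near the floor in the jaw at 101.2 and 123.3 and at 475.2 and 358.1 in brain (3.69-fold, log2 -1.88 ± 0.24 SE, limma adjusted p = 0.0275). Plxna2, a receptor of Sema6a, read 849.3 and 790.6 against 2066 and 1755 (2.32-fold, log2 -1.22 ± 0.15 SE, limma adjusted p = 0.0267), and its other 3 probe sets gave -1.02, -0.78 and -0.74. The other 6 plexins had log2 differences between -0.52 (Plxna3) and 0.54 (Plxnb3, 156.2 and 256.9 in the jaw against 142.1 and 132.7 in brain), with no call. Both neuropilins were level between the tissues on the probe set read for each. Nrp1 read 4330 and 4225 in the jaw and 4389 and 4478 in brain, and Nrp2 read 1723 and 1912 against 2039 and 1907, with log2 differences of -0.05 and -0.12 (SE 0.15 and 0.16). For both genes the probe sets disagreed. The other 3 of Nrp1 gave -0.19, 0.02 and 0.99, and the other 3 of Nrp2 gave 0.69, 0.47 and 1.72 toward the jaw.

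Among the class 3 ligands, Sema3b, a secreted repellent, read 417.3 and 496.3 in the jaw and 220.6 and 241.1 in brain, 1.97-fold higher in the jaw (log2 0.98 ± 0.15 SE, limma adjusted p = 0.0385). Sema3d, a class 3 semaphorin with a role in neural crest and vessels, read 1982 and 1582 against 1036 and 826.6 (1.91-fold, log2 0.94 ± 0.15 SE, limma adjusted p = 0.0403). Its neighbour on chromosome 5, Sema3a, the classic ligand of Nrp1, gave a log2 difference of -0.34 from 827.9 and 733.7 in the jaw and 1154 and 843.6 in brain, while another probe set gave 0.58. Sema3c was level at 4284 and 3678 against 3885 and 3875. Sema3e, which binds Plxnd1 without a neuropilin, read 528.4 and 510.2 against 371.7 and 287.7 (log2 0.67 ± 0.17 SE, limma adjusted p = 0.0945). Its second probe set gave -0.46. Sema3g read 192.8 and 146.2 in the jaw and 183.6 and 127.3 in brain, with a log2 difference of 0.14. Sema3f read 524.6 and 246.4 in the jaw and 398.6 and 385.6 in brain, so that the brain signals lay between those of the jaw (log2 -0.12). Thus 2 of the 7 class 3 ligands were called, both toward the jaw.

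Of the membrane-bound semaphorins only Sema4f and Sema6a passed the test among the 12 tested, both toward brain. Sema4f read 63.96 and 115.8 in the jaw and 799.9 and 707 in brain, with a log2 difference of -3.13 ± 0.32 (SE, limma adjusted p = 0.0193). That is 8.74-fold on the signals as measured and 6.96-fold with the jaw array under the floor set to the floor. Sema6a, a ligand of Plxna2 and Plxna4, read 183.4 and 194.5 against 334 and 382.5 (1.89-fold, log2 -0.92 ± 0.15 SE, limma adjusted p = 0.0429). Sema7a, the ligand of Plxnc1, stood at 346.7 and 504.1 in the jaw and 802.6 and 610 in brain, a log2 difference of -0.74 ± 0.29 (SE, limma adjusted p = 0.191). Sema4d, a ligand of Plxnb1, read 399.1 and 423.8 in the jaw and 248.3 and 267.7 in brain (log2 0.67), and Sema5a read 1064 and 1324 against 813.8 and 792.1 (0.56), neither of them called. Sema4g was not called toward brain at -0.90. Sema6c was near level at 228.8 and 261 against 298.5 and 246.7 (-0.15), and for Sema5b the arrays overlapped at 62.57 and 111.5 against 183.1 and 104.2 (-0.73 ± 0.47 SE).

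In the Slit system both calls were toward the jaw. Slit3 read 242.2 and 217.3 in the jaw and 87.31 and 98.51 in brain, where both signals were under the floor, so that the jaw was at least 2.28-fold higher (log2 on the measured signals 1.31 ± 0.17 SE, limma adjusted p = 0.0293). Slit2, the ligand best known from the midline and from trigeminal axon branching, read 3276 and 2913 against 1939 and 1627 and missed the threshold (log2 0.80 ± 0.15 SE, limma adjusted p = 0.0546), and its other probe sets gave 1.49 and 0.61. Slit1 read 158.6 and 121.3 in the jaw and 176.6 and 155.9 in brain, with a log2 difference of -0.26, whereas its second probe set gave -3.33, with both jaw signals under the floor. The receptor Robo2 read 243.3 and 361.5 in the jaw and 126.1 and 164.7 in brain (2.06-fold, log2 1.04 ± 0.15 SE, limma adjusted p = 0.0365). Robo1, its neighbour on chromosome 16 with no gene between, read 1745 and 2394 in the jaw and 3038 and 2406 in brain (log2 -0.40 ± 0.26 SE, limma adjusted p = 0.36). A second Robo1 probe set gave -3.90, from 49.9 and 33.19 in the jaw, both under the floor, and 620.9 and 598 in brain. Robo4, the Robo receptor of endothelium, read 338.4 and 292.1 in the jaw and 154.3 and 289.7 in brain, with no call (log2 0.57 ± 0.34 SE, limma adjusted p = 0.326).

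In the netrin system both calls were toward brain. Unc5d, an Unc5 receptor of migrating cortical neurons, read 56.11 and 84.89 in the jaw, both under the floor, and 625.7 and 555.2 in brain, so that brain was at least 5.85-fold higher (log2 on the measured signals -3.09 ± 0.25 SE, limma adjusted p = 0.014). Ntng1, a membrane-anchored netrin-G that does not bind Dcc, read 128.7 and 220.1 in the jaw and 611.8 and 581.1 in brain (3.54-fold, log2 -1.82 ± 0.27 SE, limma adjusted p = 0.037). The secreted netrins tested, Ntn1 and Ntn4, were level between the tissues. Ntn1 read 1006 and 1043 against 1248 and 1185, and Ntn4 read 339.4 and 414.6 against 362.6 and 319.7, with log2 differences of -0.25 and 0.14. Ntn5 was not tested, as its mean lay under the floor. It read 173.7 and 121.7 in the jaw and 16.51 and 58.88 in brain, where both signals were under the floor. Unc5b, also a receptor of endothelium, read 547.7 and 497.7 against 517.7 and 402.1 (0.19), and Unc5c gave -0.22. Unc50, the only tested match by name alone, gave -0.37 with no call, and its other probe sets 0.18 and 0.16.

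**Figure D3:**
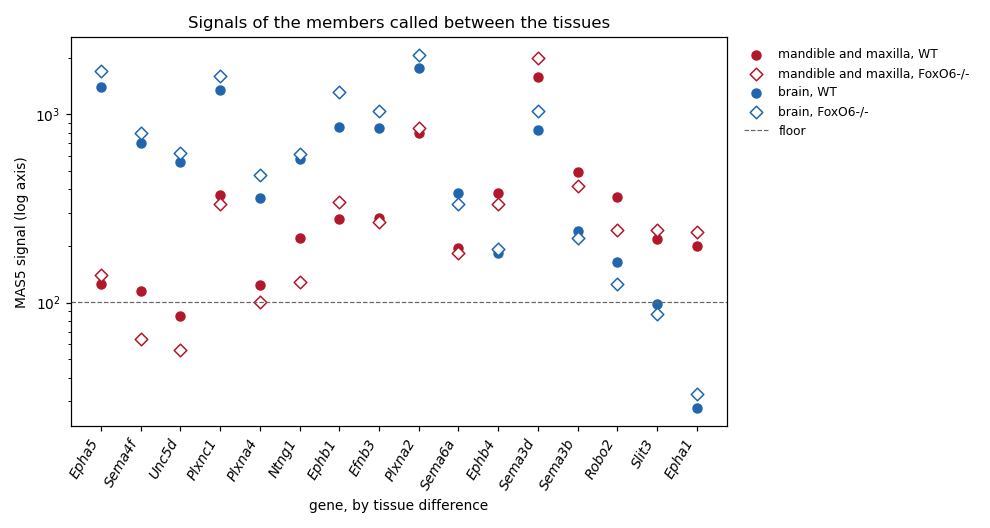
MAS5 signals (log axis) of the 16 members called between the tissues, ordered from brain to jaw, with red for jaw, blue for brain, filled circles for WT, open diamonds for FoxO6-/- and a dashed line at the floor of 101. The signals of the brain arrays lie above both jaw signals for the 10 genes on the left and below them for the 6 on the right.

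The calls stood beside differences in cell type markers. Of the 10 neuron markers 9 were called toward brain, with a median of -4.02 (log2). Of the oral epithelium markers all 6 tested were called toward the jaw (median 1.80, summed signals 66474 and 44984 against 10226 and 6636), as were 6 of 7 muscle markers (median 1.37) and 2 of 7 osteoblast markers (median 0.81). Of 7 endothelium markers tested 1 was called, Cldn5, toward brain, and the median was 0.21. The part of these cell types in the members' differences was not tested. On the WT arrays alone 14 of the 16 called members differed by at least 2-fold in their direction, and on the FoxO6-/- arrays alone 11. When all 18193 genes were tested with no floor, limma called 0 members and 0 genes in either direction, with 22 members and 3824 genes at an unadjusted p under 0.05, against 26 and 4241 with the floor. Of the 28 members with several probe sets above the floor, 19 had all of them on 1 side of 0, among them the 5 of these that were called.

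Other genes of the guidance pathways were taken from 2 lists written by hand. Of 20 co-receptors and matrix partners, all tested, 0 were called toward the jaw and 8 toward brain, with a median of -0.40. Dcc, the attractive netrin receptor, read 51.27 and 111.3 in the jaw and 1683 and 1302 in brain (log2 -4.29 ± 0.43 SE, limma adjusted p = 0.0191). The axonal adhesion proteins Cntn2 and Nrcam were under the floor on both jaw arrays and at least 6.04-fold and 13.5-fold higher in brain. At the other end Rgmb (0.53), Cxcl12 (0.49) and Flrt3 (0.34) lay toward the jaw with no call. Of 36 cytoplasmic mediators tested, 10 were called toward brain and 1 toward the jaw, Vav3 (log2 1.44 ± 0.22 SE, limma adjusted p = 0.0397). Next to it stood Farp2 (0.74) and Tiam1 (0.58), with no call. The semaphorin mediator Crmp1 read 157.5 and 220 in the jaw and 6183 and 5229 in brain (log2 -4.93 ± 0.24 SE, limma adjusted p = 0.00859), while Dpysl5 and Rnd1 were under the floor on both jaw arrays and at least 5.22-fold and 1.90-fold higher in brain.

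The second comparison asked what differs in FoxO6-/- jaw. With 1 array per genotype there is no test, and ratios are given as a description for the 59 members with a mean of both jaw arrays at or above the floor. The ligands and receptors centred on no difference, with a median log2 ratio of 0.00 for the members and -0.01 for all genes, and 30 of the 59 were higher on the FoxO6-/- array. At least 2-fold higher was 1 member (1.69%, beside 0.591% of all 12186 genes) and at least 2-fold lower 1 member (1.69%, beside 1.69% of all genes). Sema4g, a transmembrane semaphorin, read 97.64 in FoxO6-/- and 222.4 in WT, 2.28-fold lower (log2 -1.19). The FoxO6-/- signal lay under the floor, and with it raised to the floor the log2 ratio was -1.14. Sema3f, a secreted ligand of Nrp2, read 524.6 against 246.4, 2.13-fold higher (log2 1.09), on a probe set that can cross-hybridize by its design suffix. A second Sema3f probe set went the other way, at 105.8 against 154.2 (-0.54), and the mean over its probe sets was 0.27.

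Among the other members the ratios were smaller on the probe set read for each. Lower on the FoxO6-/- jaw array were Ntng1 (128.7 against 220.1, log2 -0.77), Plxnb3 (156.2 against 256.9, -0.72), Robo2 (243.3 against 361.5, -0.57) and Sema7a (346.7 against 504.1, -0.54). A second Ntng1 probe set went the other way, at 184.4 against 160.4 (0.20), and a second Plxnb3 probe set gave -0.03. Higher were Ntn5 (173.7 against 121.7, 0.51), Sema4c, a ligand of Plxnb2 (559.8 against 397.4, 0.49), Sema3g (192.8 against 146.2, 0.40) and Slit1 (158.6 against 121.3, 0.39). By family the class 3 semaphorins were higher in 6 of 7 genes (median 0.22) on the probe set read, beside 48.7% of all genes, and Sema3b was lower (-0.25). Of these 6, Sema3f and Sema3e had second probe sets that went the other way, at -0.54 and -0.11. On the probe set read all 3 Slits were higher (0.16 to 0.39), while Robo1 and Robo2 were lower (-0.46 and -0.57) and Robo4 higher (0.21). Plexins were lower in 6 of 9 (median -0.12), and Eph receptors of the A and B kind were higher in 3 of 6 and 3 of 4. Epha4 was lower on the probe set read (857.7 against 1074, -0.32) and on its other probe sets above the floor (-0.57, -1.16 and -0.81). Ligands had a median of 0.04 (18 of 32 higher) and receptors of -0.03 (12 of 26 higher). Of the 27 members with several probe sets above the floor, 15 had all of them on 1 side.

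On the same pair of arrays all 9 neuron markers measured were lower in FoxO6-/- (median log2 -0.85), 3 of them at least 2-fold, 3 of 4 olfactory neuron markers measured were at least 2-fold lower (median -1.84, summed signals 1075 against 2016), and 8 of 8 cartilage markers were lower (median -1.07). The 6 oral epithelium markers were higher (median 0.50), and the Actb and Gapdh 3′ to 5′ ratios were higher, as given above. The part of these values in the ratios of Sema4g, Ntng1 or Sema7a was not tested. The co-receptors and matrix partners were higher in 8 of 15 (median 0.06), from Cntn1 (0.85), Chl1 (0.51) and Flrt3 (0.34) down to L1cam (-0.14), Rtn4r (-0.56) and Vegfa (-0.76). The cytoplasmic mediators were higher in 14 of 34 (median -0.02), from Vav3 (0.56), Vasp (0.26) and Nck1 (0.23) down to Crmp1 (-0.48), Mical3 (-0.60) and Arhgef12 (-0.77).

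**Figure D4:**
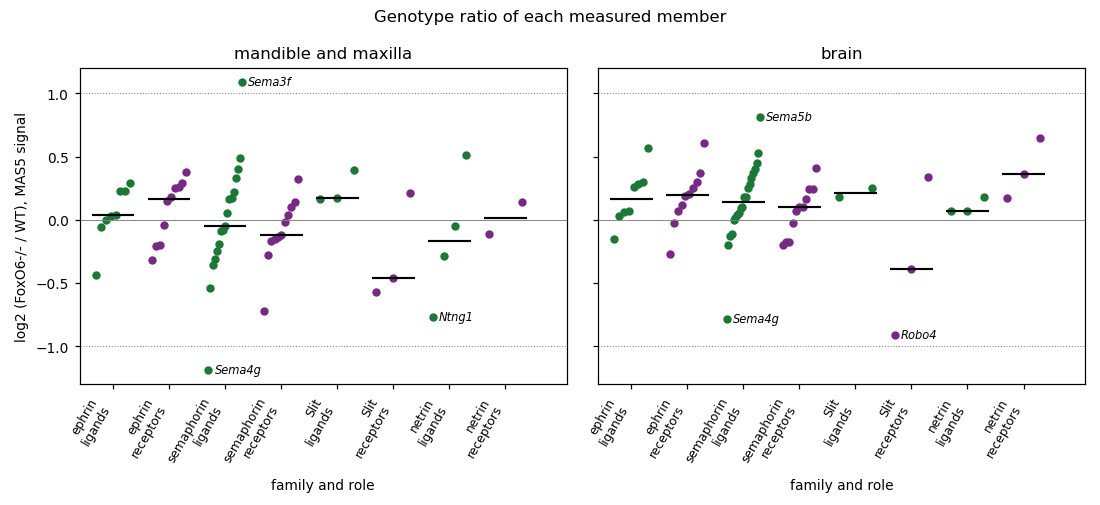
Log2 ratio of FoxO6-/- over WT for each measured ligand (green) and receptor (purple) in jaw (left) and brain (right), by system and role, with a bar at the median and dotted lines at 2-fold. Sema4g and Sema3f pass the lines in the jaw and no member does in brain, where most points lie above 0.

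The third comparison set FoxO6-/- against WT brain. Of 61 members measured, 0 were at least 2-fold higher, beside 1.13% of all 12327 genes, and 0 at least 2-fold lower, beside 2.03%. The members lay slightly above 0, with a median log2 ratio of 0.16 against 0.05 for all genes, and 47 of 61 (77%) were higher in FoxO6-/-, beside 57.3% of all genes. This held for 28 of 33 ligands (median 0.18) and 19 of 27 receptors (median 0.16). Highest were Sema5b (183.1 in FoxO6-/- against 104.2 in WT, 0.81), Unc5c, a repulsive netrin receptor (830.7 against 530.5, 0.65), Ephb1 (1318 against 860.4, 0.61), Efna3 (256.4 against 173.2, 0.57) and Sema3g (183.6 against 127.3, 0.53). A second Unc5c probe set gave 0.61 and a second Efna3 probe set 0.45. On the probe set read, all 5 ephrin-A ligands, both Slits measured and all 3 Unc5 receptors measured were higher. Their medians were 0.07, 0.22 and 0.36. A second Slit1 probe set went the other way, at 178.1 against 299.8 (-0.75), as did a second of Slit2, at 167 against 214.1 (-0.36). The class 3 semaphorins were higher in 6 of 7 (median 0.33), counting Sema3c, which was near level at 3885 against 3875. A second Sema3c probe set gave -0.37. Where more than 1 probe set of a gene passed the floor, 20 of 27 members kept 1 direction on all of them.

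Lower in FoxO6-/- brain were Robo4 (154.3 against 289.7, -0.91), Sema4g (209.8 against 361.7, -0.79), Robo2 (126.1 against 164.7, -0.39), Ephb6, an Eph receptor without kinase activity (156 against 188.6, -0.27), and Unc50 (2944 against 3484, -0.24). Beside Robo4, all 7 endothelium markers measured were lower on the FoxO6-/- brain array (median -0.25, summed signals 5302 against 6498 in WT), and all 10 neuron markers were higher (median 0.37). Cartilage markers were higher in 8 of 8 (median 0.94) and oral epithelium markers in 6 of 6 (median 0.67). All 3 olfactory neuron markers measured were higher (median 0.42), unlike in the jaw, with 1 at least 2-fold (Gng13, 395.3 against 52.33, 2.92). The part of these cell types in the members' ratios was not tested. Of the co-receptors and matrix partners 18 of 20 were higher (median 0.20), with Cntn1 above 2-fold (2953 against 1449, 1.03), followed by Rtn4r and Chl1 (both 0.42), and Vegfa (-0.49), Met (-0.06) and Cntn2 (0.02) at the other end. Of the cytoplasmic mediators 26 of 36 were higher (median 0.08), from Ngef (0.52), Evl (0.47) and Rnd1 (0.45) down to Arhgef11 (-0.27), Arhgef12 (-0.47) and Farp2 (-0.54).

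The last comparison asked which members differ between genotypes over both tissues, with the tissue as a term in limma and a difference between tissues counted as error. In this fit 0 of 61 members passed, beside 0% of all 12569 genes. The smallest limma adjusted p of any gene was 0.902. At an unadjusted limma p under 0.05 there were 3 of the 61 members and 588 of the 12569 genes, which are like shares. Sema4g had a log2 difference of -0.99 ± 0.18 (SE, FoxO6-/- minus WT, limma adjusted p = 0.902), being lower on the FoxO6-/- array of both tissues. Robo2 was lower likewise (-0.48 ± 0.15) and Sema3g higher (0.46 ± 0.15), with the same adjusted value. None of these differences passed the correction.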

How the data were processed

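The series holds 4 Affymetrix arrays, 1 for each tissue (mandible and maxilla, or brain) and genotype (FoxO6-/- or WT) as labelled. The authors normalized them with MAS5 and deposited its linear intensity per probe set, which has a trimmed mean of 500 on every array (trim of 2% at each end). Which version they ran was not given. No further normalization was applied. Probe sets were named from GEO's platform annotation, with 34945 of 1 gene, 932 of several genes and 64 controls left out. Entrez IDs linked 71 of the 72 members to the RefSeq table of GRCm38.p6 and 0 symbols changed.

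A gene was read from its brightest probe set on average. It was compared where its average signal over the arrays in question was 101 or more, the median of all signals, called the floor. The tissue and genotype coefficients came from limma 3.58.1 in R 4.3.3 (lmFit, eBayes; 1 residual and 2.4 prior degrees of freedom) on log2 signals of all 4 arrays, with Benjamini-Hochberg adjustment over 12569 genes and a threshold of 0.05. The methods state pooling of 4 animals for mandible and maxilla only. With 1 array per group, p-values measure only the spread between these arrays. Within 1 tissue, genotype ratios have no test, and a 2-fold limit was used. The procedure was run on simulated arrays with known tissue changes, as a check of the code. Those arrays held no genotype difference, so they give no error rate for these data. Members and gene lists were chosen with earlier results of these data known. Any member may be named, and signals are given for the members with the largest differences per family, the 5 highest and 5 lowest genotype ratios per tissue, and the class 3 semaphorins, neuropilins, Slits and Robos. Of the lists of other guidance genes the 3 highest and 3 lowest are named. The alternatives tried were median centring, quantile normalization, omission of the floor, a higher floor (524, the 75th percentile), raising of low signals to the floor, gene-specific probe sets, averaging over a gene's probe sets, 1 model term left out, a variance trend, and the arrays of each genotype alone. Gene-specific probe sets were taken by name alone, as those with no letter before the ending _at. Promoter letters were searched with Python 3.11.15 and pandas 2.3.3.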

Additional observations from a re-analysis of the deposited data

Results flagged for a closer look

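Among members whose mean signal in the arrays compared was at or above the floor, 3 had log2 ratios of opposite sign in the groups compared. For each of them the gap between the ratios exceeded 2-fold. With 1 array each this difference was not tested. The FoxO6-/- over WT log2 ratio of Robo4 was 0.21 in the jaw and -0.91 in brain, a gap of 1.12. The jaw over brain log2 ratio of Sema3f was 0.40 on the FoxO6-/- arrays and -0.65 on the WT arrays, a gap of 1.04, and its second probe set gave 0.52 and 0.95. That of Sema5b was -1.55 on the FoxO6-/- arrays and 0.10 on the WT arrays, a gap of -1.65, with a FoxO6-/- jaw signal of 62.57, under the floor.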

How the results depend on the processing

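No member called between the tissues changed direction under the alternatives run, and the genotype fit called 0 members under each of those it was run with. Of the 16 members called between the tissues, 16 were also called after quantile normalization, with low signals raised to the floor, with the mean of all probe sets and with a variance trend, 15 without the genotype term (Robo2 at a limma adjusted p of 0.0527) and 14 after median centring, which lost Ephb4 and Sema3d. With gene-specific probe sets all 14 with a value were called, while Ephb4 and Sema3b had no probe set with such a name. With no floor 0 members were called in either direction, as were 0 of all genes. A floor at the 75th percentile left 33 members, with 3 called toward the jaw and 5 toward brain. On the FoxO6-/- arrays alone 3 members were at least 2-fold higher in the jaw. The median tissue difference was -0.01 after quantile normalization, -0.16 after median centring (which moved all genes by -0.12), -0.12 with no floor, -0.19 with the higher floor, 0.10 with the mean of all probe sets, 0.00 on the WT arrays and -0.02 on the FoxO6-/- arrays. In the jaw, 3 members were at least 2-fold higher and 5 lower with no floor, 0 and 0 with the higher floor, and 0 were higher with the mean of all probe sets or gene-specific probe sets, which lose Sema3f. In brain 2 were higher and 2 lower with no floor. Median centring moved the median genotype ratio to 0.14 in the jaw (all genes 0.12) and 0.31 in brain (all genes 0.20). Genes with a mean signal near the floor are the least certain.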
